A study of Mus musculus with 6 samples.

Results

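Basement membranes and the matrix of vessel walls were followed through 33 genes, chosen by symbol: 6 collagen IV chains, 10 laminin chains, 2 nidogens, 4 proteoglycan and multiplexin genes, and 11 further matrix genes and inhibitors. All 33 had exactly 1 probe set mapped to a single gene, out of 19937 genes measured. CD1 mouse embryos were dissected at E11.5 (embryonic day) for the AGM, the region of aorta, gonads and mesonephros, where the wall of the dorsal aorta gives rise to blood stem cells and germ cells settle in the genital ridges. After collagenase digestion, cells that carried CD31 and lacked CD45 and Ter119 were sorted and divided by surface c-kit, with 3 arrays for the c-kit-positive and 3 for the c-kit-negative population. No allele, treatment or cell line was involved, and the labels call the replicates biological without saying how many embryos each one pooled. The p-values therefore measure the spread between these arrays.

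A basement membrane is a thin sheet of matrix on which endothelium and epithelium rest. Laminins are trimers of an alpha, a beta and a gamma chain. Many of them are cross-shaped, polymerise at the cell surface and bind integrins and dystroglycan. Collagen IV forms a second network that is crosslinked covalently. Nidogens and the heparan sulfate proteoglycan perlecan tie the networks together. Endothelial cells lay down much of this matrix in a growing vessel, together with the cells that surround it.

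Genes of the vascular basement membrane were lower in c-kit-positive cells: 16 of the 33 fell, 12 of them by at least 2-fold, where passing means a p under 0.05 in limma after Benjamini-Hochberg adjustment. None of the 33 rose, and 0 had an unadjusted p under 0.05 for a rise in limma, beside 2264 of all 19937 genes. Over all genes 4.70% fell, 3.08% fell by at least 2-fold and 2.71% rose. The falls were uneven within families: the widespread collagen IV chains Col4a1 and Col4a2, the chains of laminin 411 (Lama4, Lamb1 and Lamc1), Nid1, Hspg2, Sparc, Mmrn2 and Timp3 fell, while Col4a3 to Col4a6, Lama1, Lama5, Nid2 and Emilin1 differed by at most 0.13 on the log2 scale in either direction. The levels of Col4a3 to Col4a6, Lama1 and Lama5 were low, and whether they lie above background is unknown. The same is unknown for the low c-kit-positive values of Lama4, Nid1, Mmrn1 and Mmrn2, so their folds may be understated. The median difference of the 33 (c-kit-positive minus c-kit-negative, log2) was -0.76, beside 0.07 over all genes. In a linear model without variance moderation 8 of the 33 fell and none rose, beside 216 and 66 of all 19937 genes. In these bulk samples fewer cells of a type and less RNA per cell cannot be told apart.

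**Figure D1:**
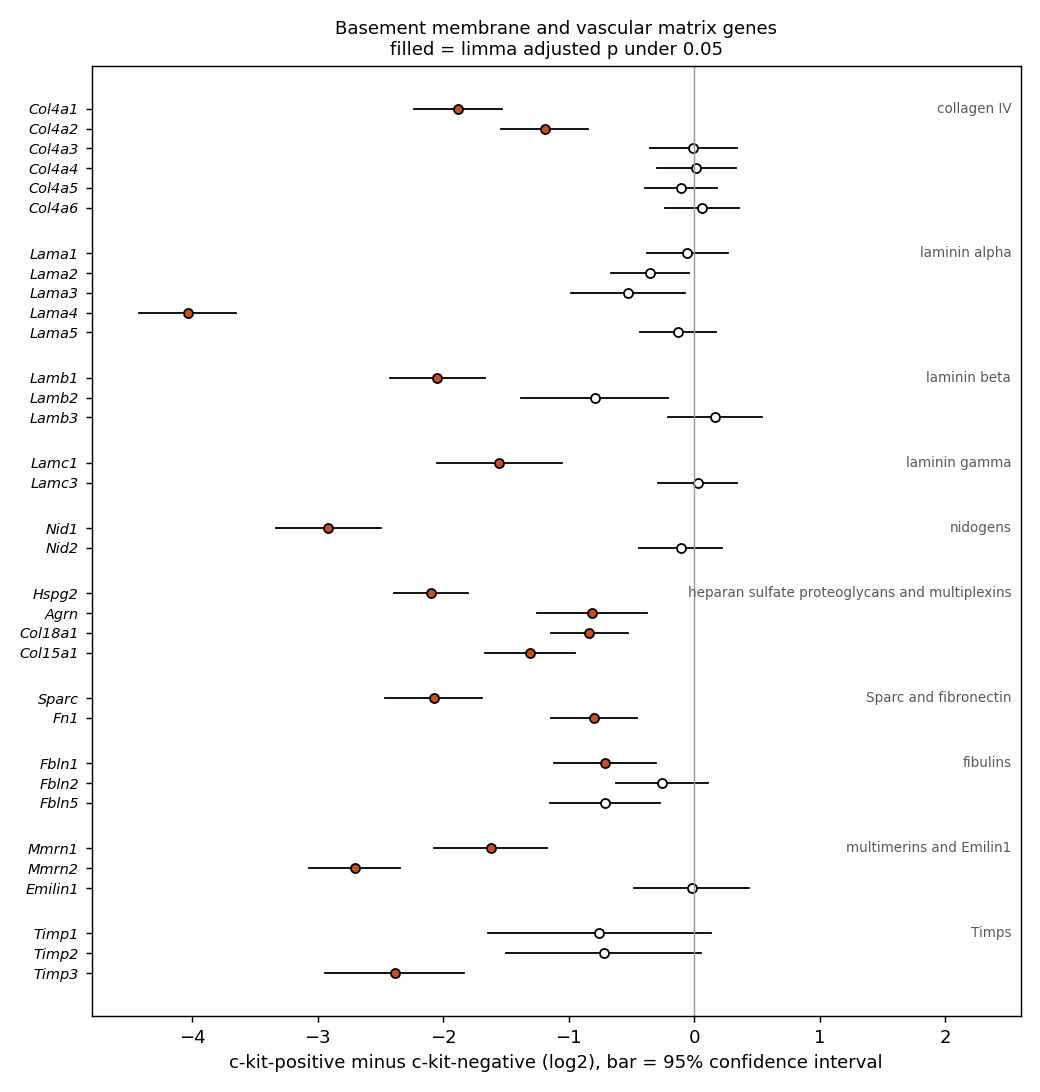
Difference of each of the 33 genes (c-kit-positive minus c-kit-negative, log2, horizontal axis) with its 95% confidence interval from limma, grouped by family. Filled points passed the threshold; all 16 lie left of 0, from -0.71 for Fbln1 to -4.03 for Lama4, and no interval lies wholly right of 0.

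The populations differed in cell markers on the same arrays. All 18 endothelial markers fell, with a median of -2.50 and mean levels of 8.52 to 8.63 in c-kit-negative and 5.71 to 5.90 in c-kit-positive arrays (log2, mean over the list). Of 16 markers of mesenchyme and smooth muscle, which also make matrix, 9 fell (mean levels 6.20 to 6.57 against 5.18 to 5.26). Of 14 germ cell markers 12 rose (6.48 to 6.58 against 7.82 to 7.95), and Kit, whose protein defined the sort, is among the 12. Of 11 markers of haematopoietic progenitors 5 rose and none fell (6.92 to 7.13 against 7.68 to 7.84; 0 fell at an adjusted or unadjusted p under 0.05 in limma): Myb, Hlf, Adgrg1, Spn and Rac2. Of 14 markers of mesonephric and coelomic epithelium 1 fell and none rose with all arrays (0 at the adjusted and 2 at an unadjusted p under 0.05 in limma; 5.49 to 5.66 against 5.50 to 5.67), while 1 rose without c-kit-negative replicate 2. The macrophage list averaged 7.36, 6.38 and 6.24 on the c-kit-negative arrays and 5.72 to 5.93 on the c-kit-positive ones, and 3 of its 12 markers fell (1 without c-kit-positive replicate 1). The platelet list averaged 6.76, 7.52 and 7.87 on the former and 5.85 to 6.14 on the latter. Of 8 platelet markers 4 fell, or 2 without c-kit-negative replicate 2 or 3 or c-kit-positive replicate 1. No marker was at 0, since the scale has no zero, and the part of these cells in the matrix results was not tested. Among the genes of the sort, Kit was higher by 1.33 in c-kit-positive cells, Pecam1 (CD31) lower by 1.86-fold, and Ptprc (CD45), selected against, stood at 8.52 and 8.75 in c-kit-positive and c-kit-negative cells.

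Collagen IV is built from 6 chains. Col4a1 and Col4a2 encode the chains of the trimer found in nearly every basement membrane, and Col4a3 to Col4a6 those of networks known from the kidney, lung, eye and some epithelia. Col4a1 (probe set 10576973) was at 7.84, 8.07 and 7.90 on the c-kit-negative arrays, in the order of replicates 1, 2 and 3, and at 6.27, 5.99 and 5.89 on the c-kit-positive arrays in the same order (log2). Col4a2 (probe set 10570068) was at 7.12, 6.79 and 7.19 in the c-kit-negative and at 5.90, 5.77 and 5.85 in the c-kit-positive arrays. For either gene every c-kit-positive array lay below every c-kit-negative one. Col4a1 was 3.69-fold lower (95% interval 2.89 to 4.69, adjusted p = 0.000224, limma) and Col4a2 2.28-fold lower (1.80 to 2.90, adjusted p = 0.00233, limma). The ratio of Col4a1 to Col4a2 within an array differed by -0.69 between the populations, with no overlap of the arrays (exact permutation test, two-sided, p = 0.1, the smallest that 3 against 3 allows, and 0.109 adjusted over the 12 pairs of genes compared here). These pairs were chosen after their values were seen.

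The remaining collagen IV genes did not pass. Col4a3 was at 5.44 in each population (SD 0.09 in c-kit-negative, 0.20 in c-kit-positive cells, n = 3 each), and its interval on the log2 scale ran from -0.35 to 0.34. Col4a4 differed by 0.02 (-0.30 to 0.33), Col4a5 by -0.10 (-0.39 to 0.19) and Col4a6 by 0.07 (-0.23 to 0.36). Their arrays spanned only 4.77 to 5.92. Of the 4, only Col4a5 had non-overlapping arrays, at 5.36 to 5.41 in c-kit-negative and 5.18 to 5.35 in c-kit-positive cells, an order that 10.6% of all genes showed in this direction. The table has no detection calls, so whether these low values lie above background was not analysed here.

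In the RefSeq annotation (GRCm38.p6) Col4a1 and Col4a2 lie head to head on chromosome 8. Col4a1 starts at position 11312826 on the minus strand and Col4a2 at 11312805 on the plus strand. Their annotated starts are thus 21 bases apart, and the annotated transcripts overlap between them. On the X chromosome Col4a6, on the minus strand, and Col4a5, on the plus strand, start 1343 bases apart. Both members of the former pair fell, and neither member of the latter passed.

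Laminin chains were divided in the same way. Lama4, the alpha chain of laminins 411 and 421 in endothelial basement membranes, had the largest difference of the 33 genes. It was at 8.99, 9.26 and 8.90 in c-kit-negative and 4.95, 5.27 and 4.83 in c-kit-positive replicates 1, 2 and 3 (probe set 10362538). The gap between the populations exceeded the range within either: 16.4-fold lower (95% interval 12.6 to 21.4, adjusted p = 1.02e-05, limma). Whether the c-kit-positive values of Lama4 lie above background is unknown, so the fold may be understated. Lama5, the alpha chain of laminins 511 and 521, which mature endothelium and epithelium share, stood at 5.48, 5.47 and 5.50 against 5.49, 5.34 and 5.24, and its arrays overlapped. Its difference was -0.13 (-0.43 to 0.17, log2), so a fall of its signal by more than 1.34-fold lies outside the interval. Without detection calls, whether this low signal lies above background is unknown. A larger fall of the transcript can therefore not be excluded. The ratio of Lama4 to Lama5 shifted by -3.91 (log2) with no overlap between populations (exact permutation p = 0.1, adjusted 0.109).

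The other alpha chains did not pass. Lama1, of early embryonic and epithelial laminin 111, was at 5.66 ± 0.10 in c-kit-negative and 5.61 ± 0.15 in c-kit-positive cells (SD, n = 3 each). Lama2, of the laminin 211 of muscle and mesenchyme, was at 5.07, 4.91 and 4.96 against 4.78, 4.58 and 4.52, a separation without overlap at an adjusted p of 0.179 (limma). Lama3, of a laminin of the epidermis, was at 5.46, 6.05 and 5.52 against 5.33, 4.91 and 5.22 (adjusted p = 0.17, limma). Its highest array was c-kit-negative replicate 2.

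Of the beta chains Lamb1, the usual partner in embryonic laminins, fell. It was at 8.83, 8.96 and 8.96 in c-kit-negative and 7.14, 6.60 and 6.85 in c-kit-positive replicates 1, 2 and 3 (probe set 10395163, 4.13-fold lower, 3.18 to 5.37, adjusted p = 0.000224, limma). Lamb2, which replaces Lamb1 at neuromuscular junctions, glomeruli and many vessels, was at 6.31, 7.00 and 6.37 against 6.17, 5.80 and 5.34. Every c-kit-positive array was below every c-kit-negative one, but the difference of -0.79 did not pass (adjusted p = 0.114, limma). It ranged from -0.99 to -0.57 with 1 array left out, the latter without c-kit-negative replicate 2. Lamb3, the partner of Lama3, was at 5.28 ± 0.10 against 5.45 ± 0.26 (SD, n = 3 each), the largest positive difference of the 33 at 0.17, with an interval of -0.21 to 0.54.

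Among the gamma chains Lamc1, present in most laminins, was at 9.23, 9.66 and 9.58 in c-kit-negative and 7.49, 8.14 and 8.18 in c-kit-positive cells (probe set 10358816). It was 2.94-fold lower (2.08 to 4.15, adjusted p = 0.00388, limma), with c-kit-positive replicate 1 the lowest array. Lamc3 was at 5.93, 6.05 and 6.02 against 6.19, 5.89 and 6.01 (interval of the difference -0.29 to 0.35). Read by trimer, all 3 chains of laminin 411 fell. In laminins 111, 211, 421 and 511, 2 of 3 chains fell, Lamb1 and Lamc1 or, for 421, Lama4 and Lamc1, and in laminin 521 only Lamc1 fell. Within laminin 411 the ratio of Lama4 to Lamb1 shifted by -1.99 (exact permutation p = 0.1, adjusted 0.109), while the ratio of Lamb1 to Lamc1 shifted by -0.49 with overlapping arrays (exact permutation p = 0.4, adjusted 0.4).

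**Figure D2:**
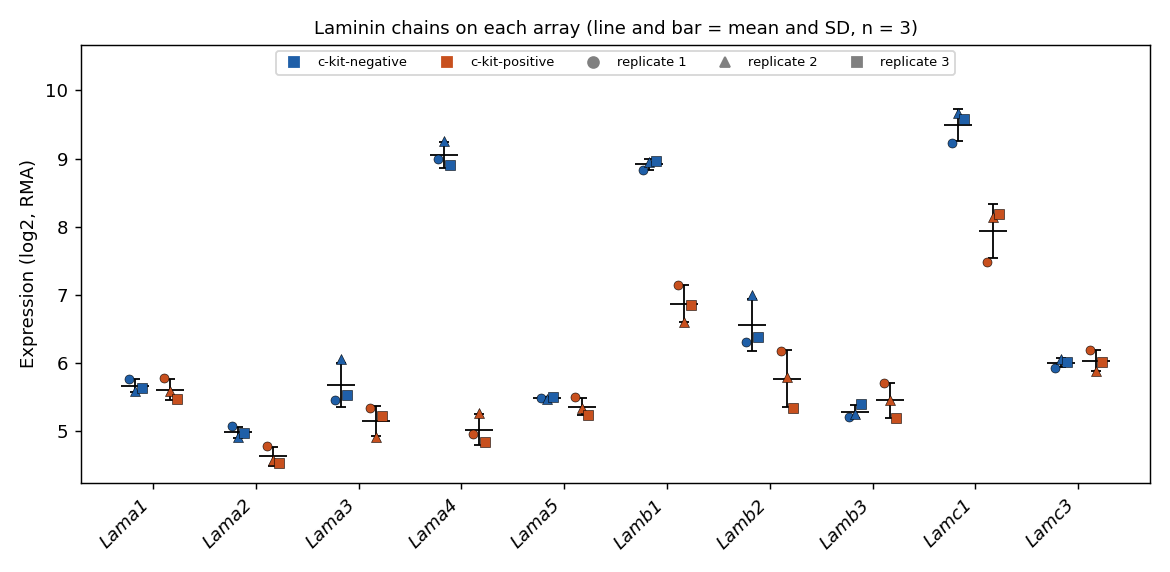
Level of each laminin chain (log2, vertical axis) on each of the 6 arrays, blue for c-kit-negative and orange for c-kit-positive cells, marker shapes for replicates, lines and bars for mean and SD. Lama4, Lamb1 and Lamc1 are far apart between populations, whereas Lama1, Lama5, Lamb3 and Lamc3 overlap.

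The nidogens, rod-shaped linkers that bind the laminin gamma chain and collagen IV, differed from each other. Nid1 (probe set 10403584) was at 8.14, 7.97 and 8.29 in c-kit-negative and at 4.95, 5.55 and 5.15 in c-kit-positive replicates 1, 2 and 3. This is a 7.53-fold lower level (5.63 to 10.1, adjusted p = 6.97e-05, limma). Whether the low c-kit-positive values of Nid1 lie above background is unknown. Nid2 (probe set 10412921) stood at 8.57, 8.38 and 8.34 against 8.20, 8.26 and 8.50, with overlapping arrays. Its difference of -0.11 had an interval of -0.44 to 0.22 (adjusted p = 0.73, limma), which leaves out a fall larger than 1.36-fold. The ratio of Nid1 to Nid2 within an array shifted by -2.80 without overlap (exact permutation p = 0.1, adjusted 0.109). Nid2 was at 8.20 or above on every array, while the highest array value of the other genes that did not pass was 7.00, for Lamb2.

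The 4 genes of heparan sulfate proteoglycans and multiplexins all fell, though by different amounts and with different certainty. Hspg2 encodes perlecan, which carries growth factors on its heparan sulfate chains. It was at 8.52, 8.60 and 8.60 against 6.58, 6.39 and 6.45 (probe set 10509280, 4.28-fold lower, 3.49 to 5.25, adjusted p = 5.99e-05, limma). Col15a1, a multiplexin of the zone beneath the basement membrane, was at 7.40, 7.64 and 7.23 in c-kit-negative and at 6.27, 6.06 and 6.01 in c-kit-positive cells, or 2.48-fold lower (1.93 to 3.18, adjusted p = 0.00185, limma). Col18a1, whose C-terminal fragment is endostatin, stood at 7.18, 7.15 and 7.01 in c-kit-negative and 6.15, 6.37 and 6.33 in c-kit-positive cells, 1.78-fold lower (1.44 to 2.21, adjusted p = 0.0078, limma).

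Agrn, or agrin, known from the neuromuscular junction and vessel walls, was at 6.70, 7.30 and 6.75 in c-kit-negative and 6.30, 6.02 and 5.98 in c-kit-positive cells (1.76-fold lower, adjusted p = 0.0396, limma). The arrays did not overlap, but the gene did not pass once any 1 of the 6 arrays was left out, with differences of -0.92 to -0.62. It also missed the threshold with quantile normalization (adjusted p = 0.0578, limma). The ratio of Hspg2 to Agrn shifted by -1.28 and that of Col15a1 to Col18a1 by -0.48 (exact permutation p = 0.1, adjusted 0.109 for each).

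Promoter windows, the 250 bases before the most upstream annotated start, were held for 24 of the 33 genes in the RefSeq table (GRCm38.p6). They are shown for Col18a1, which fell, and for Timp2 and Fbln5, which did not pass, as windows that overlap no annotated gene and carry the same motifs on either side of the threshold. Capitals mark matches, on either strand, to the GC box GGGCGG or the CCAAT box CCAAT, read 5′ to 3′ on the strand of the gene. They lie at chr10:77166531-77166780, minus strand, at chr11:118355412-118355661, minus strand, and at chr12:101819120-101819369, minus strand.
Col18a1: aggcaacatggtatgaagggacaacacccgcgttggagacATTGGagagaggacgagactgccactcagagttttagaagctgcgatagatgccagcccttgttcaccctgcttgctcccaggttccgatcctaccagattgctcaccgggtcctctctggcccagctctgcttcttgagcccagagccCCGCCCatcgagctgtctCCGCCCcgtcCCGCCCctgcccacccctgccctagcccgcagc
Timp2: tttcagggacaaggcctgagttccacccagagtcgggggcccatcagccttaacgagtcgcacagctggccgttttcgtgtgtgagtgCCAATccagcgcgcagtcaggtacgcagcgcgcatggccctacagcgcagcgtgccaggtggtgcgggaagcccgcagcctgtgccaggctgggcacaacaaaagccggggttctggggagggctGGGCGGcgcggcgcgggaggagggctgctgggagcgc
Fbln5: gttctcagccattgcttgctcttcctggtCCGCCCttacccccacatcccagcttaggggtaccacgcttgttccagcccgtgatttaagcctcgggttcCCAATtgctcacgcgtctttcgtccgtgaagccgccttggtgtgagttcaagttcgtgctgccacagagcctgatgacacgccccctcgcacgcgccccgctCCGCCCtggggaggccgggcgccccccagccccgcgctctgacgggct

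The GC box was present in 7 of 12 windows of genes that fell and in 7 of 12 of genes that did not pass, beside 33% of 27025 genes. The CCAAT box was present in 6 of 12 and 4 of 12, beside 34.5%. The windows not shown that overlap no annotated gene were all of genes that fell. That of Mmrn1 held only a CCAAT box, and those of Fbln1 and Sparc held neither motif. The ETS site CCGGAA was in 1 of the 24 windows, that of Nid1, beside 12.3% of all. The letters TATAAA and the AP-1 motif TGANTCA were in 0 of the 24, beside 13% and 6.85%. These matches describe letters in a window, and the probe sets do not distinguish between alternative starts. The most upstream annotated start may be that of a rare transcript, for Mmrn1 and Sparc among others, and whether it is the one used in these cells was not tested.

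Sparc and fibronectin, both secreted in large amounts by developing vessels and mesenchyme, fell to different degrees. Sparc, a collagen-binding protein that shapes collagen IV deposition, was at 11.53, 11.63 and 11.48 in c-kit-negative and at 9.44, 9.20 and 9.77 in c-kit-positive replicates 1, 2 and 3. It was 4.21-fold lower (probe set 10386058, 3.22 to 5.50, adjusted p = 0.000227, limma). Fn1, the fibronectin gene, was at 10.11, 10.23 and 9.93 against 9.22, 9.47 and 9.18, a 1.74-fold lower level (probe set 10355403, 1.37 to 2.21, adjusted p = 0.015, limma). The populations did not overlap for either gene. Fn1 missed the threshold without c-kit-negative replicate 1 or 2 or c-kit-positive replicate 1 or 3 (adjusted p between 0.0528 and 0.0549, limma). The ratio of Sparc to Fn1 shifted by -1.27 (exact permutation p = 0.1, adjusted 0.109).

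Fibulins, which join basement membranes to elastic fibres, showed small differences. Fbln1 was at 6.90, 6.35 and 6.78 in c-kit-negative and 6.11, 5.81 and 5.98 in c-kit-positive cells (1.64-fold lower, adjusted p = 0.0492, limma). It missed the threshold with either other scaling (0.0546 with each array centred on its median, 0.0598 with quantile normalization). It passed with 1 array left out only without c-kit-negative replicate 2 (adjusted p = 0.0263, limma). Fbln5, required for elastic fibre assembly, was at 6.07, 6.31 and 6.21 against 5.12, 5.53 and 5.82 and did not pass (adjusted p = 0.0636, limma), except without c-kit-positive replicate 3 (0.0383). Its difference of -0.71 equalled that of Fbln1 to 2 decimals. Fbln2, which binds nidogens and laminins, differed by -0.26 (-0.62 to 0.11) with overlapping arrays.

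Multimerins and Emilin1 share the EMI domain and differed in response. Mmrn2, an endothelial matrix protein that binds CD93 and Clec14a, was at 7.68, 8.11 and 8.11 in c-kit-negative and at 5.27, 5.31 and 5.21 in c-kit-positive cells (probe set 10414102). At 6.52-fold lower (5.07 to 8.37, adjusted p = 4.42e-05, limma) it had the third largest measured fall of the 33. Whether its low c-kit-positive values lie above background is unknown. Mmrn1, stored in platelet granules and endothelium, was at 6.50, 6.35 and 6.82 against 4.62, 5.23 and 4.95 (probe set 10538706, 3.08-fold lower, 2.25 to 4.21, adjusted p = 0.00194, limma). Platelet markers were lower on the same arrays, with levels given above, and their part in the fall of Mmrn1 was not tested. Emilin1, an elastic fibre glycoprotein, was at 6.14, 6.84 and 6.54 against 6.31, 6.48 and 6.68, with each c-kit-positive value inside the c-kit-negative range and a difference of -0.02 (-0.48 to 0.44). The ratio of Mmrn2 to Mmrn1 shifted by -1.08 without overlap (exact permutation p = 0.1, adjusted 0.109).

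Of the tissue inhibitors of metalloproteinases, Timp3, which binds to the matrix and also blocks the receptor Kdr, fell. It was at 8.14, 7.88 and 8.83 in c-kit-negative and 5.84, 5.76 and 6.10 in c-kit-positive replicates 1, 2 and 3 (probe set 10365482, 5.23-fold lower, 3.56 to 7.67, adjusted p = 0.000769, limma). Timp1 and Timp2, which are soluble, did not pass and were the most variable of the 33 genes in c-kit-negative cells (SD 0.85 and 0.73). Timp1 was at 5.46, 6.96 and 5.53 against 5.20, 4.88 and 5.61, with c-kit-negative replicate 2 the only array above 5.61. Its difference was -0.76 (adjusted p = 0.317, limma), and -1.02 to -0.27 with 1 array left out, the latter without that array. Timp2 was at 6.16, 5.19 and 6.63 against 5.51, 4.93 and 5.38, with the same replicate the lowest of its population. Its difference was -0.72 with all arrays (adjusted p = 0.274, limma) and -1.12 without c-kit-negative replicate 2 (adjusted p = 0.0379, limma). The ratio of Timp3 to Timp2 shifted by -1.67 and that of Timp3 to Timp1 by -1.63 (exact permutation p = 0.1, adjusted 0.109 for each).

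**Figure D3:**
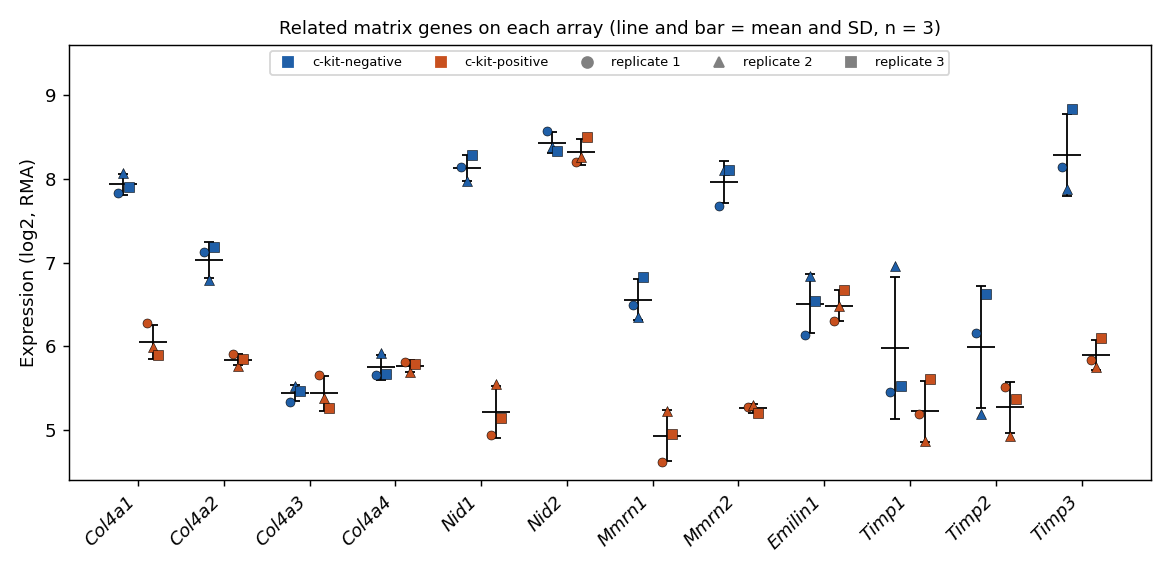
Levels (log2, vertical axis) of 12 related matrix genes on each array, blue for c-kit-negative and orange for c-kit-positive cells, marker shapes for replicates, lines and bars for mean and SD (n = 3). Col4a1, Col4a2, Nid1, Mmrn1, Mmrn2 and Timp3 separate the populations, while Col4a3, Col4a4, Nid2 and Emilin1 overlap and c-kit-negative replicate 2 stands apart for Timp1 and Timp2.

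Single genes of the 33 varied between replicates, most of all Timp1 and Timp2 in c-kit-negative cells. Means over those that fell, and over those that did not pass, lay close together. The macrophage and platelet list means given above varied more between c-kit-negative replicates. Averaged over the 16 that fell, the c-kit-negative replicates stood at 8.17, 8.25 and 8.27 and the c-kit-positive ones at 6.41, 6.43 and 6.42 (log2). The 17 that did not pass averaged 5.82, 5.98 and 5.89 against 5.72, 5.56 and 5.66. Since the 16 were picked by the comparison, these means describe them and test nothing. All 3 c-kit-positive values lay below all 3 c-kit-negative ones for 21 of the 33 genes, beside 10.6% of all genes, and the reverse order occurred for none, beside 16.2%. Besides Col4a5, the genes that were separated without passing were Lama2, Lama3, Lamb2 and Fbln5.

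Genes that make, remodel or bind this matrix were read from further lists, each beside the 4.70% of all genes that fell and the 2.71% that rose. Of 18 genes of collagen biosynthesis 4 fell and none rose (0 at an unadjusted p under 0.05 in limma), or 2 fell without c-kit-positive replicate 3. Serpinh1, the collagen chaperone HSP47, was 3.39-fold lower (adjusted p = 0.000168, limma). Bmp1, a procollagen protease, was 2.33-fold lower, and P4ha1 and P4ha3, prolyl hydroxylase subunits, 2.16-fold and 1.83-fold. Of 6 crosslinking enzymes 3 fell, or 1 without c-kit-negative replicate 1 or c-kit-positive replicate 1 or 3. Pxdn, the peroxidasin that forms the sulfilimine bond of collagen IV, was at 8.04 in c-kit-negative and 5.46 in c-kit-positive cells (5.97-fold lower, adjusted p = 0.000286, limma), and the lysyl oxidases Loxl3 and Lox were 1.76-fold and 1.79-fold lower.

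Proteases that cut this matrix fell alongside its components: 7 of 23 fell and none rose (0 at an unadjusted p under 0.05 in limma). Mmp14, a membrane-bound metalloproteinase, was 6.34-fold lower (adjusted p = 7.86e-05, limma) and Mmp2, a gelatinase that cleaves collagen IV and is activated by Mmp14, 4.84-fold lower (adjusted p = 9.04e-05, limma). Adamts1 and Adamts9, which cleave proteoglycans, were 3.40-fold and 4.30-fold lower. Of 19 receptors 7 fell and none rose (0 at an unadjusted p under 0.05 in limma). The collagen receptor subunit Itga2 was 7.27-fold lower, the laminin receptor subunit Itga6 3.10-fold, its partner Itgb1 2.16-fold and the glypican Gpc3 3.95-fold.

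Of 38 other basement membrane and vascular matrix genes 13 fell. None rose with the deposited scaling (1 at an unadjusted p under 0.05 in limma), and Npnt, the nephronectin of epithelial basement membranes, at 5.89 in c-kit-negative and 6.52 in c-kit-positive cells, rose only with median centring or quantile normalization (adjusted p = 0.0488 and 0.0391, limma). The falls were led in p by Fbn2, a fibrillin (5.23-fold lower), Vcan, the proteoglycan versican (11.6-fold), Bgn, biglycan (5.36-fold), and Sparcl1, a relative of Sparc (21.1-fold). The list medians were -0.53 for biosynthesis, -0.69 for crosslinking, -0.27 for proteases, -0.26 for receptors and -0.14 for the other matrix genes.

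**Figure D4:**
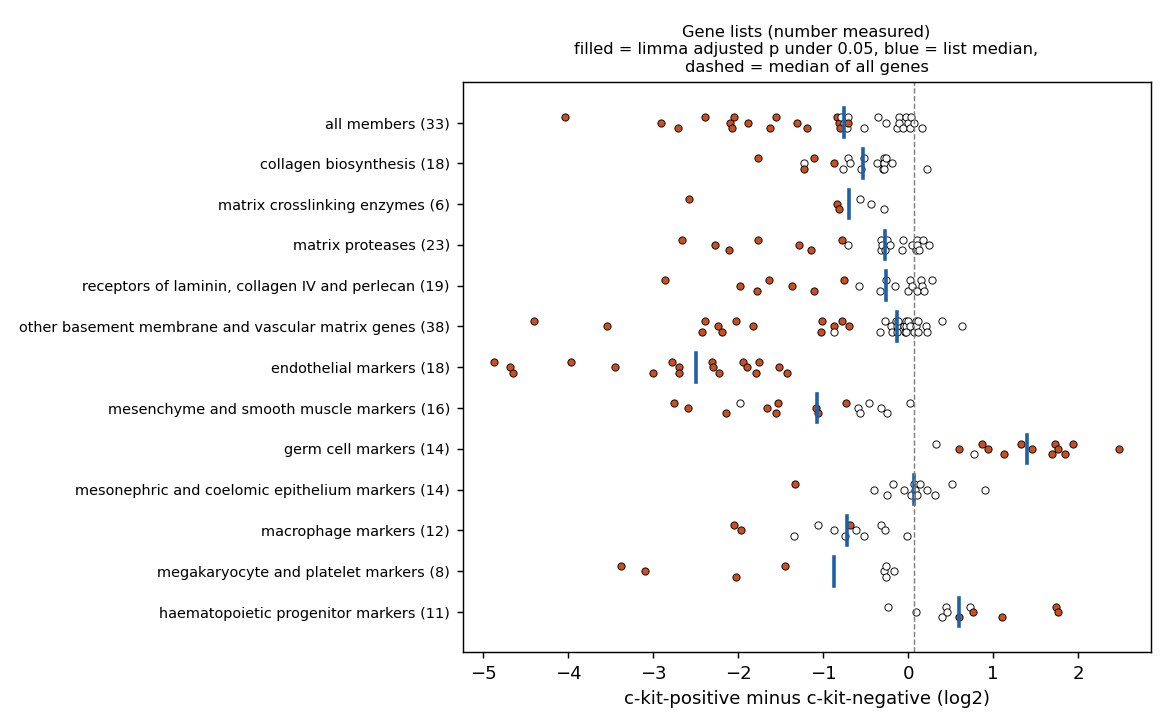
Difference of each gene (c-kit-positive minus c-kit-negative, log2, horizontal axis) by list, with the number of genes measured in brackets, filled points past the threshold, a blue bar at the list median and a dashed line at the median of all genes (0.07). The matrix lists have medians between -0.76 and -0.14, endothelial markers lie wholly left of 0 and germ cell markers wholly right of it.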

How the data were processed

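Total RNA of 6 sorted samples was measured on 1 array each; per the labels' protocols, 5 ng of each was amplified with a whole-transcript kit before biotin labelling, which can distort ratios. Per the submitters' processing notes the authors used RMA, which gives normalized log2 intensities per probe set (version and settings not given in the sources used here). These deposited log2 values ran from 1.22 to 13.7. Of 34760 probe sets 21640 had 1 gene symbol in the platform annotation; for genes with several probe sets the one with the highest mean was used. The number of arrays limits the precision.

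A limma model (version 3.58.1, R 4.3.3; lmFit, eBayes, two-sided, no block) contrasted the populations, with Benjamini-Hochberg adjustment over 19937 genes and a threshold of 0.05; fold changes and 95% intervals come from that fit. All 33 members were named; from each further list up to 4 genes past the threshold with the smallest p, and the sort genes as values. Npnt was named after its values were seen. The members and lists were chosen with earlier results of these data known. On simulated arrays of 19937 genes the test recovered 0% of log2 changes of 0.5, 48% of 1, 88% of 2 and 94% of 3. These percentages depend on how many genes change, and whether they hold for the measured arrays was not tested. Same-numbered replicates did not deviate together (correlations 0.00071, 0.024 and 0.059 across genes). Figures were drawn with matplotlib.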

Additional observations from a re-analysis of the deposited data

How the results depend on the processing

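Of the 33 genes, 16 fell with all arrays. The count was 15 with each array centred on its median, 14 with quantile normalization, and 15 with an intensity trend and robust prior. It was 16 with array weights, with the mean of all probe sets, or without the dimmest 30% of genes, where Lama2 was not tested. The mean of all probe sets could not change the values of the 33, which had 1 probe set each. The count was 8 without variance moderation, beside 216 of all 19937 genes. These 8, Col4a1, Lama4, Lamb1, Nid1, Hspg2, Col18a1, Sparc and Mmrn2, passed in each of the 14 alternatives. Col4a2, Lamc1, Col15a1, Mmrn1 and Timp3 missed the threshold only without variance moderation. With the replicate number as a block 15 fell, Agrn being lost; the numbers mark no known pairing. With 1 array left out 13 to 15 fell, beside 670 to 745 of all genes. These counts include Timp2 without c-kit-negative replicate 2 and Fbln5 without c-kit-positive replicate 3, which are not among the 16. In the alternatives that kept all arrays, all 19937 genes and variance moderation, 879 to 956 genes fell. Without the dimmest 30% it was 950 of 13956 genes. All 16 kept a negative difference in each alternative, and none of the 33 rose in any. Without detection calls the signal over background is unknown, which limits what the low values of Col4a3 to Col4a6, Lama1, Lama5 and other dim genes can show. The low c-kit-positive values of Lama4, Nid1, Mmrn1 and Mmrn2 share this limit, so their folds may be understated.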
